A study of Mus musculus with 2 samples.

Results

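A group of 10 genes of cholesterol handling, out of 32448 gene entries on the array, was read in bone marrow-derived macrophages (BMDMs) with and without IL-4. They are the liver X receptors Nr1h3 (LXRα) and Nr1h2 (LXRβ), the sterol hydroxylase Ch25h, the efflux genes Abca1, Abcg1 and Apoe, the ubiquitin ligase Mylip (IDOL), the lysosomal cholesterol carriers Npc1 and Npc2, and the esterifying enzyme Soat1. The genes were chosen by name, and a probe belonged to a gene when its RefSeq accession did. This gave 12 of 39424 probes, 2 each for Nr1h3 and Mylip and 1 for each other gene. Of the 32448 entries, 20654 had a RefSeq symbol. The others were identifiers without a symbol, and they count among all genes in the shares below. The transcripts the probes name are NM_013839 (Nr1h3), NM_009473 (Nr1h2), NM_009890 (Ch25h), NM_013454 (Abca1), NM_009593 (Abcg1), NM_009696 (Apoe), NM_153789 (Mylip), NM_008720 (Npc1), NM_023409 (Npc2) and NM_009230 (Soat1). BMDMs are macrophages grown from marrow with M-CSF, here from 8-week-old male mice that carried floxed Crif1 alleles in both groups, and no Cre is named for them. One culture condition was untreated BMDMs at 18 h and the other was BMDMs exposed to IL-4 for 18 h. RNA of each was hybridised to 1 single-colour array on a shared slide, so there are 1 untreated and 1 IL-4 array, no replicate check and no p-value. Whether the RNA came from 1 mouse or from pooled mice is not given in the sources used here. In such bulk RNA, fewer cells that express a gene and less RNA per cell cannot be told apart.

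Liver X receptors are nuclear receptors that sense oxysterols and bind DNA as partners of the retinoid X receptors (RXRs). When a macrophage takes up cholesterol, oxysterols form, the receptors switch on the transporters that move cholesterol out to lipoproteins, and Mylip limits further uptake of lipoproteins. Cholesterol released in lysosomes leaves through Npc2 and Npc1, and what is not exported is stored as esters made by Soat1. IL-4 acts through STAT6 and drives macrophages toward the M2 state.

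Promoter sequence from RefSeq (GRCm38.p6) was at hand for 8 of the 10 genes. The 250 bases before the start site are shown for the 3 of them whose IL-4 difference was over 0.5 log2 units, because they went in different directions, Ch25h up and Abca1 and Mylip down. Capitals mark a relaxed direct repeat, GGTNA and a second GGTNA with 5 bases between them on either strand, a loose form of the site that LXR and RXR bind together. It was chosen after the Abca1 promoter had been read.
Abca1 (chr4:53159896-53160145, minus strand): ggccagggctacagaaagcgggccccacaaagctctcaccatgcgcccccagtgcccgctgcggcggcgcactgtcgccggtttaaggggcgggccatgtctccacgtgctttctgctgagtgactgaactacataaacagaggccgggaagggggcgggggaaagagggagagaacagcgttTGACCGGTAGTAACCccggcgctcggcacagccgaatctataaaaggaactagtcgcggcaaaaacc
Ch25h (chr19:34475149-34475398, minus strand): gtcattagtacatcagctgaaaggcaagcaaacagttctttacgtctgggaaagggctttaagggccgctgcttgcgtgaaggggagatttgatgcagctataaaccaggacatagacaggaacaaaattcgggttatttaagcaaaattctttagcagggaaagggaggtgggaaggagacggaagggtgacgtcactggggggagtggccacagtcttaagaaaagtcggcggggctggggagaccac
Mylip (chr13:45389492-45389741, plus strand): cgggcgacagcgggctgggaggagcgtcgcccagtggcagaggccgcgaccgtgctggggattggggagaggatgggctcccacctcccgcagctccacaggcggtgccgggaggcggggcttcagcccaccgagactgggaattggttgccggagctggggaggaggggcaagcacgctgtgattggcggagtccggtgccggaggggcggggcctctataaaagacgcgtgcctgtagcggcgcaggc

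The Abca1 promoter held the relaxed repeat from base -67 to base -53, where -1 is the last base before the start site. It was the 1 match among 11 promoter sequences of the members, and 0.621% of the 32851 promoters in the table held one. The strict repeat, AGGTCA and a second AGGTCA with 4 bases between them, occurred in 0.0152% of all promoters. A single AGGTCA, which each strict repeat contains, occurred in 14% of them. The STAT-type motifs, TTC and GAA with 4 or 3 bases between them, occurred in 5.85% and 7.02%. These 4 motifs, searched on both strands of the same 250 bases, occurred in 0 of the 11 sequences. A match is a description of letters, and no match says nothing about the factor.

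All 12 probes were well above background on both arrays by the flag of the scanner software. None of their spots was saturated or flagged as an outlier. The intensities below are background-subtracted and not yet scaled. Differences are IL-4 minus untreated on the log2 scale, after taking off each array's 75th percentile (9.84 untreated, 9.94 IL-4). The error beside a difference is the scanner software's own error of both intensities carried into the difference. It lay between 0.204 and 0.302 for the 12 probes and does not cover the spread between cultures. Nor does the SD between spots of 1 probe, whose median was 0.073 log2 units over 386 probes printed in 10 spots.

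**Figure D1:**
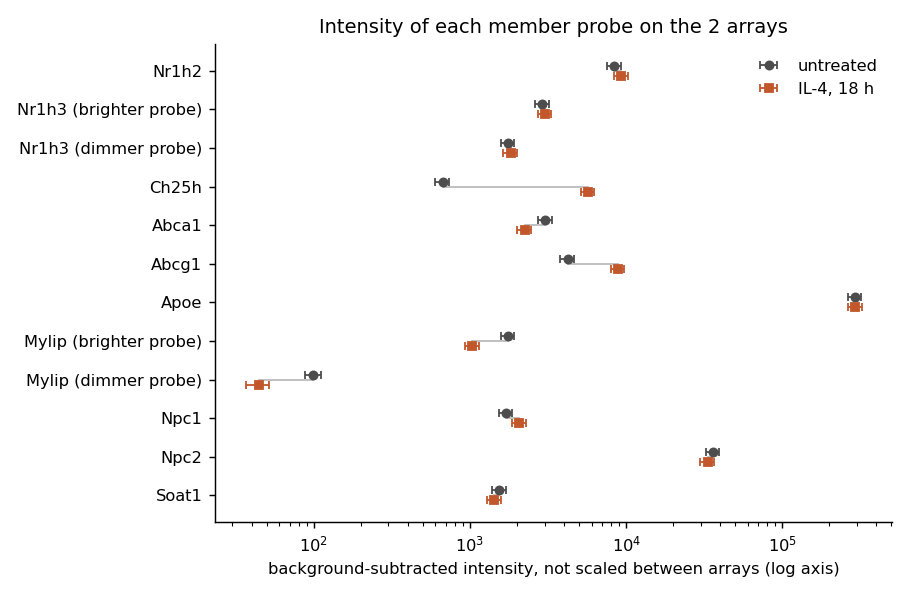
Background-subtracted intensity (log axis, not scaled between arrays) of the 12 probes in untreated (circles) and IL-4-treated BMDMs (squares), with the error estimated by the scanner software as bars. Ch25h went from 666 to 5677 and Abcg1 from 4210 to 8823, both Mylip probes were lower with IL-4, and levels of different probes are not comparable.

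Of the 10 genes, 1 was at least 2-fold higher with IL-4, beside 2.86% of the 19743 genes that either array detected. None was at least 2-fold lower, where 4.47% of all genes were. At 1.5-fold, 2 of 10 were higher against 6.11% of all genes, and 1 of 10 was lower against 11.0%. All 10 members were measured on both arrays, while the 19743 genes include those detected on 1 array only, whose differences are bounds. Among the 17242 measured on both arrays, 2.44% were as far down as Mylip at -0.86 and 6.63% as Abca1 at -0.54. Shares of lower genes at either cutoff were thus smaller there. The same limit holds where the shares over all genes recur below. With so few members, chosen with earlier results of these data known, these shares are a description. The split of all genes depends on the scaling, with 564 higher and 883 lower here and 827 higher and 564 lower with median scaling. With median scaling the members had 2 higher and 0 lower. The split of all genes also rests on genes detected on 1 array only. Of the genes measured on both arrays, 421 lay as low as Mylip at -0.86. Most of the 883 lower genes were therefore detected on the untreated array only. The median difference of the 10 members was -0.07, and that of all 17242 genes measured on both arrays was -0.01.

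The receptors themselves differed by less than the error. Nr1h3, the LXR form that is enriched in macrophages and liver, had an intensity of 2908 in untreated BMDMs and 3018 with IL-4 at its brighter probe. The log2 difference of that probe was -0.05 ± 0.20 (software error). Its dimmer probe gave 1743 and 1816, a difference of -0.04, so both probes told the same. Nr1h2, the more widely expressed form, had 8398 and 9326, a difference of 0.05 ± 0.20. Both arrays thus overlap within error for each receptor, and the sign of each changes with the scaling. Among the RXR partners, Rxrb had a difference of -0.06 and Rxrg of 0.10. Rxra was further off at -0.27, from dim signals of 171 and 152. The dimmer probe of Rxra had -0.07, and Rxrg rests on its brighter probe because the other was not well above background.

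Ch25h had the largest difference among the members in the settings tried. It makes 25-hydroxycholesterol, an oxysterol that activates LXR and restrains sterol synthesis. Its intensity was 666 in untreated BMDMs and 5677 with IL-4, a 7.95-fold higher signal and a log2 difference of 2.99 ± 0.20. Only 23 of the 17242 genes measured on both arrays, Ch25h included, were as far up, or 0.133%. Among the 4038 genes of similar signal, within 1 log2 unit, the middle 90% lay between -0.45 and 0.50. The difference stayed between 2.89 and 3.28 under the 10 alternatives tried.

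The efflux genes went apart. Abcg1, the transporter that passes cholesterol to mature HDL, had 4210 in untreated BMDMs and 8823 with IL-4, a 1.96-fold higher signal and a log2 difference of 0.97 ± 0.20. This was just short of 2-fold, and 2.20% of genes measured on both arrays were as far up. Abca1, which loads cholesterol onto lipid-poor apolipoprotein A-I, had 3031 and 2233, a 1.45-fold lower signal and a difference of -0.54 ± 0.20. That far down were 6.63% of all genes and 3.11% of genes of similar signal. The gap between the differences of Abcg1 and Abca1 was 1.51, which a constant scaling factor cannot change, and it lay between 1.41 and 1.51 in the settings tried. In both genes the difference exceeded the software error, and they had opposite signs in every setting.

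Apoe, the apolipoprotein that macrophages secrete as a cholesterol acceptor, was the member with most technical support, since its probe was printed in 10 spots. The spots ranged from 249036 through a median of 283434 to 332744 in untreated BMDMs, and from 251977 through 282096 to 350121 with IL-4. The ranges overlap almost whole. Spot by spot, the log2 difference was -0.09 ± 0.04 (SD, 10 spots of 1 array pair), negative in 10 of 10 spots, between -0.13 and -0.02. Spots are not replicates of the culture, and the sign follows the scaling, since median scaling gave 0.12 and spike-in scaling 0.19. Of the 12 efflux transporters and acceptors listed, members included, 9 were measured on both arrays, 3 above 0 and 6 below, with a median of -0.21. With median scaling 5 were above and 4 below. Scarb1, an HDL receptor, had differences of -0.21 and -0.45 at its brighter and dimmer probe. Apoc1 had -0.57, Pltp -0.54, Abca7 -0.35 and Lcat 0.30. Abcg4, a relative of Abcg1, had 0.98, though it was dim, with intensities of 50.6 and 107, and another background correction brought it to 0.38.

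**Figure D2:**
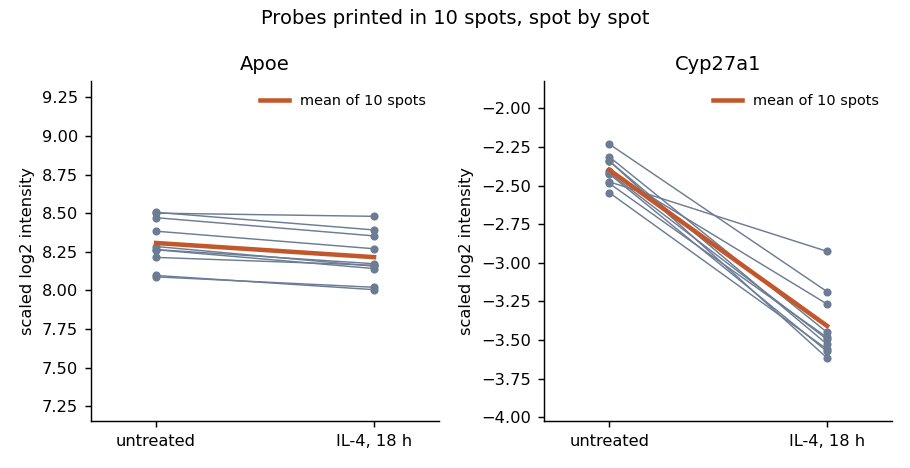
Scaled log2 intensity of each of the 10 spots of the Apoe probe and of the Cyp27a1 probe without and with IL-4, with a line for each spot position and a thick line for the mean. With 75th percentile scaling all 10 lines go down for both genes, with mean differences of -0.09 for Apoe, which turns to 0.12 with median scaling, and -1.01 for Cyp27a1.

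Mylip was lower at both of its probes. It encodes the ubiquitin ligase that marks lipoprotein receptors such as Vldlr and Lrp8 for degradation. At the brighter probe the intensity was 1747 in untreated BMDMs and 1030 with IL-4, a 1.82-fold lower signal and a log2 difference of -0.86 ± 0.20. That far down were 2.44% of all genes and 1.07% of genes of similar signal. The dimmer probe went from 99.4 to 44.3, a difference of -1.27 ± 0.30, or 2.40-fold lower. It lies near the dimmest signals called well above background, which were 29.2 without and 27.9 with IL-4. Those receptors had smaller differences, 0.05 for Vldlr and 0.22 for Lrp8. The Lrp8 probe was dim, with intensities of 73.7 and 92.0, and another background correction brought its difference to 0.04. A further Lrp8 probe was not well above background. A dimmer Vldlr probe gave -0.20.

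The intracellular members stayed close to their untreated signal. Npc1, the membrane protein that exports cholesterol from lysosomes, had 1691 and 2068, a difference of 0.19 ± 0.20. Npc2, the soluble carrier that hands cholesterol to Npc1, had 35974 and 33206, a difference of -0.22 ± 0.20. Soat1 (ACAT1), which esterifies cholesterol for storage in droplets, had 1541 and 1433, a difference of -0.21 ± 0.20. The differences of the 3 genes are about the size of the software error. Those of Npc2 and Soat1 changed sign with spike-in scaling, to 0.07 and 0.08, and Soat1 also with median scaling, to 0.009, while Npc1 kept its sign.

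**Figure D3:**
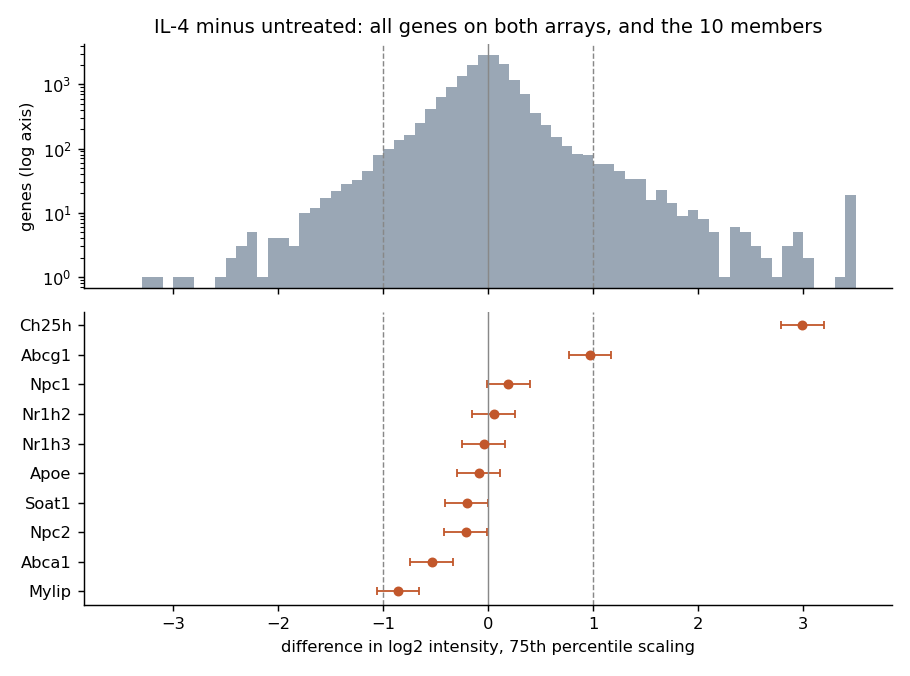
Above, the number of genes (log axis) by their IL-4 minus untreated difference in log2 intensity, for the 17242 genes measured on both arrays, with the 17 genes beyond 3.5 log2 units in the end bins. Below, the 10 members with the software error as bars, where Ch25h stands at 2.99, Abcg1 and Mylip near the dashed 2-fold lines at 0.97 and -0.86, and Nr1h3 and Nr1h2 at 0.

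Because the scaling between 2 arrays is not settled, the members were also read against the median of all genes in each of 10 settings. On this relative scale Ch25h lay between 2.94 and 3.01, Abcg1 between 0.92 and 0.99, Abca1 between -0.56 and -0.44, and Mylip between -0.87 and -0.73. Npc1 lay between 0.18 and 0.21, Npc2 between -0.29 and -0.13, and Soat1 between -0.23 and -0.15. Nr1h3, Nr1h2 and Apoe were within 0.17 of the median in every setting, and each had the other sign in 1 of them.

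**Figure D4:**
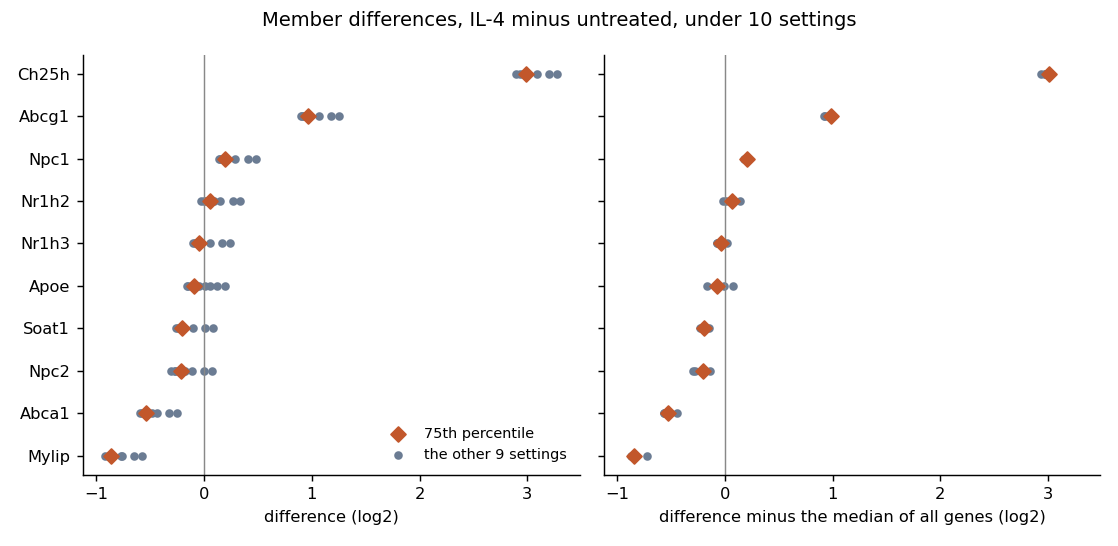
IL-4 minus untreated difference in log2 intensity of the 10 members under 10 settings of scaling, background correction and spot filter, as such (left) and after subtracting the median of all genes (right), with diamonds for 75th percentile scaling. The points of a gene spread with the scaling on the left and draw together on the right, where Ch25h, Abcg1, Abca1 and Mylip stay clear of 0.

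The members were set beside lists of genes that work with them. Among 10 genes of oxysterol formation and removal, 9 were well above background, and Ch25h and Cyp27a1 were at least 2-fold changed, in opposite directions. Over all genes, 2.86% were that far higher and 4.47% lower. Cyp27a1, the mitochondrial enzyme that hydroxylates the side chain of cholesterol, was printed in 10 spots. They ranged from 157 through a median of 172 to 195 in untreated BMDMs and from 80.0 through 87.3 to 129 with IL-4, with no overlap. Its log2 difference was -1.01 ± 0.23 (SD, 10 spots of 1 array pair), negative in 10 of 10 spots. It was 2.01-fold lower, which 6 alternatives brought under 2-fold, with median scaling at -0.80 and normexp background correction at -0.72. Cyp7b1, which hydroxylates 25-hydroxycholesterol further, had 0.68, and Hsd3b7, the next enzyme of that route, had -0.01.

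Of 25 listed LXR target genes, 24 had a probe and 21 were measured on both arrays. In that list 7 were above 0 and 14 below, with a median of -0.17, beside 8175 above and 9067 below over all genes. With median scaling the same list had 12 above and 9 below and a median of 0.04, where all genes had 0.20. Without the members, 16 genes were measured and their median was -0.18. Mertk, a receptor for apoptotic cells, was 2.20-fold lower, going from 2263 to 1102 at its single probe. Lpl, lipoprotein lipase, had 0.76 and 0.58 at its 2 probes, and Tgm2, a transglutaminase, had 0.81 and 0.86. Among the 14 below 0, Cd5l had -0.51, Plin2 -0.47 and Smpdl3a -0.34. Srebf1, the LXR-driven regulator of fatty acid synthesis, had 0.20, and the lipogenic enzymes Scd1, Scd2 and Fasn had 0.02, 0.01 and -0.22. The Srebf1 signal was dim, with intensities of 168 and 207, and another background correction brought its difference to 0.02. Fasn was also dim, with 274 and 252, and had 0.07 with spike-in scaling.

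Of 13 receptors and coregulators, 0 were 1.5-fold changed in either direction, with a median of -0.07. Of 23 detected genes of lysosomal and intracellular sterol transport, likewise 0 were, with a median of -0.09 and a range from -0.43 to 0.19. Over all genes that either array detected, 6.11% were at least 1.5-fold higher and 11.0% lower. The genes of these 2 lists were measured on both arrays, where 6.63% of all genes were as far down as -0.54. With lists this small such counts are a description. Among 7 detected genes of cholesterol ester turnover, Soat2 had 0.84 from a dim signal of 240 and 461, and Nceh1, a cholesterol ester hydrolase, had -0.33. The 15 genes of the SREBP2 pathway, which makes sterols, had a median of -0.36, and 10 were below 0 and 5 above. Lss was furthest down at -0.60, and 0 were 2-fold changed, where 2.86% of all genes were higher and 4.47% lower. With median scaling the pathway's median was -0.15, still under that of all genes.

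**Figure D5:**
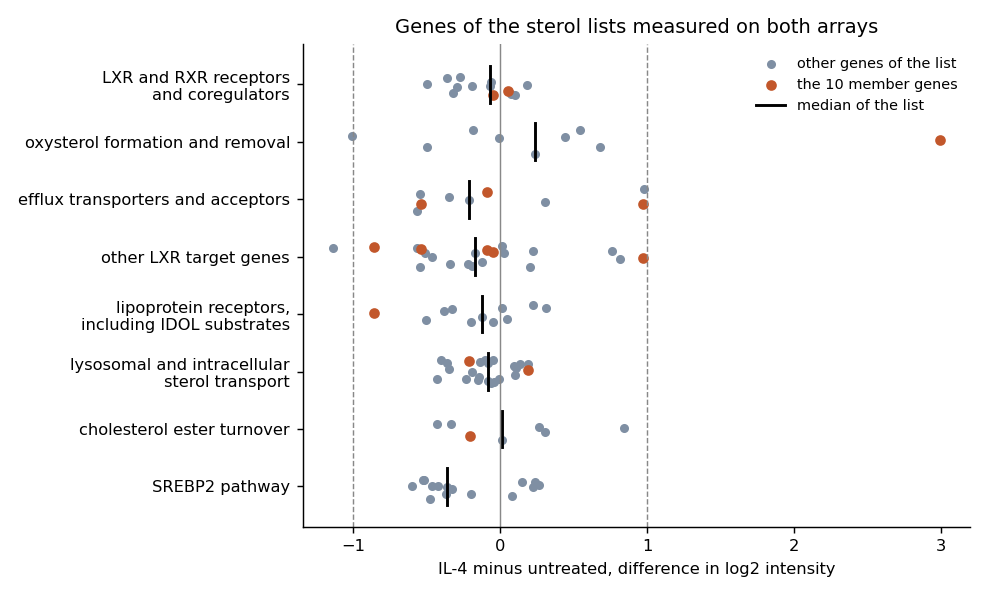
IL-4 minus untreated difference in log2 intensity of the genes in 8 lists that were measured on both arrays, with the 10 members in orange, other genes in grey-blue and a bar for the median of each list. Genes in several lists are drawn in each; the medians lie between -0.36 and 0.235, and Ch25h, at 2.99, is the point outside the range of -1.14 to 0.98 that holds the rest.

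The treatment and the cell type were checked on markers. With IL-4, the M2 markers Arg1, Chil3 and Mrc1 were 216-fold, 14.2-fold and 5.33-fold higher, and Retnla was at least 595-fold higher, its untreated signal not being well above background. The macrophage markers Csf1r and Adgre1, the 2 of 7 above 0, were bright on both arrays, with differences of 0.09 and 0.17. Lyz2 had -0.70, and Itgam had -0.71 at its brightest probe and -0.24 and -0.27 at the others. Cd14, Fcgr1 and Mertk were at least 2-fold lower, where 4.47% of all genes were. Of the 7 macrophage markers with a probe, 5 were at least 1.5-fold lower, where 11.0% of all genes were, and their median difference was -0.71. The summed scaled intensity of these 7 was 0.861 times the untreated one. Such a sum is weighted to the brightest probes, here Csf1r. All 6 stromal markers were well above background on both arrays, Col1a2 with intensities of 233342 and 234332. Their median difference was -0.12, and their summed signal was 0.911 times the untreated one. The 7 neutrophil markers with a probe were all measured, with a median difference of -0.23 and a summed signal at 0.891 times. Of these, 2 were at least 1.5-fold lower. Of 8 lymphocyte markers 5 were detected on neither array, while Cd3e, Cd4 and Nkg7 were measured on both. Of 6 dendritic cell markers 4 were detected on neither array. Siglech of that list was bright, at 29067 and 31659, though its other probe was not well above background. Among 7 markers of eosinophils, basophils and mast cells, 2 were detected on neither array, and Cpa3 was at least 3.51-fold lower. The part of these cells in the members' differences was not tested.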

How the data were processed

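RNA of untreated and of IL-4-treated BMDMs was labelled with Cy3 and hybridised to 1 Agilent mouse array each. The authors deposited scanner output of Feature Extraction 10.10.1.1, whose intensity values are background-subtracted and not scaled between arrays, together with software error and flags. The authors also deposited processed log2 values, whose scale and centring are not given in the sources used here (column medians 0.161 and 0.016). For the 12 member probes their differences lay within 0.000565 of the scanner ones.

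Control and outlier-flagged spots were dropped. Spots of a probe were averaged as log2 intensity, and each array was centred on its 75th percentile. A probe counted as well above background when most of its spots carried the flag. A gene was read from its brightest probe. A probe well above background on 1 array gave only a bound, in which the dim side was set to the dimmest detected signal of that array unless its own was higher. Probes detected on neither array gave no fold. Probes were named through RefSeq accessions (GRCm38.p6 table, names only, while the array was annotated on mm9), and other probes kept their identifier. Fold thresholds of 2 and 1.5 stand in for a test, which 1 array per condition does not allow. Precision is limited by there being 2 arrays. Named genes were the members with all probes, genes of the lists at least 2-fold changed, the genes Rxra, Rxrb, Rxrg, Srebf1, Cyp27a1, Scarb1 and Nceh1, and the M2 markers. Other genes of the lists (Abcg4, Apoc1, Pltp, Abca7, Lcat, Vldlr, Lrp8, Cyp7b1, Hsd3b7, Lpl, Tgm2, Cd5l, Plin2, Smpdl3a, Scd1, Scd2, Fasn, Soat2, Lss, Csf1r, Adgre1, Itgam, Lyz2, Siglech, Cd3e, Cd4, Nkg7 and Col1a2) were named after their values were seen. A gene that the rule names is not reported here. The members and lists were chosen with earlier results of these data known. The steps were tested on simulated data. The alternatives were no scaling, scaling on 7 spike-in probes, on the median or on the 75th percentile of probes detected on both arrays, cyclic loess, quantile normalization, normexp (offset 50, on median pixel intensity), flagged spots kept, the processed values and the median over a gene's probes. A comparison of the LXR protein sequences was not made. Work was done in R 4.3.3 (limma 3.58.1) and Python 3.11.15 (pandas 2.3.3, numpy 2.4.6).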

Additional observations from a re-analysis of the deposited data

How the results depend on the processing

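No paired analysis was possible because there is a single array for each condition. Leaving out a replicate was not possible for the same reason. The count of members that were 2-fold or more higher, 1 as reported, was 2 with spike-in scaling, 2 without scaling, 2 with median scaling and 2 at a cutoff of 1.5-fold, where Abcg1 joins Ch25h. The count 2-fold or more lower, 0 as reported, was 1 with the median over the probes of a gene and 1 at a cutoff of 1.5-fold, in both cases Mylip. The median difference of the members, -0.07, was 0.145 with median scaling, 0.031 without scaling and 0.217 with spike-in scaling, because these settings add a constant to every gene. The gap between Abcg1 and Abca1, 1.51, was 1.41 with normexp. With median scaling, genes at least 2-fold changed went from 2 to 1 for oxysterol formation and removal, as Cyp27a1 dropped out, from 0 to 2 for efflux (Abcg1 and Abcg4), from 1 to 2 for LXR targets, where Mertk left and Abcg1 and Tgm2 entered, and from 0 to 1 for cholesterol ester turnover (Soat2). Under the 10 alternatives the members had 100 single values. Of these, 55 moved by less than the SD between spots of probes of similar signal, and 45 by more. For the members' brightest probes that SD lay between 0.043 (Npc2) and 0.058 (Soat1). Abca1, Abcg1, Mylip, Npc1 and Ch25h, 5 of the 10 members, kept their sign in all 10. Signals near the dimmest well above background, such as the dimmer Mylip probe, are the least certain.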
